A study of Mus musculus with 217 samples.

Results

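Isopropyl β-D-1-thiogalactopyranoside (IPTG), the lactose analog that releases the lac repressor from its operator, was examined for its own effect on the striatum of 12-month-old wild-type mice. The comparison holds 19 of the 217 RNA-Seq libraries of the study, chosen by tissue, age and genotype: 10 libraries of WT mice given IPTG (WT + IPTG; 5 females, 5 males) and 9 of WT mice that never received it (WT; 4 females, 5 males). All 19 mice were of the background labelled C57BL/6, with wild-type *Htt* and a lac repressor transgene under the ubiquitous β-actin promoter (labelled Hdh(LacO-+/+):beta-actin-LacIR tg), so the controls carried the repressor too. IPTG was given in water or chow from embryonic day 5, through the dam, and was never withdrawn. The titles of the 9 WT libraries without IPTG carry the label MOCK. Cages were uniform for sex, genotype and treatment, so that cage and the sex-by-treatment group cannot be told apart. The other 38 libraries of the 12-month striatum are of mice with the repressible 140Q allele (LacQ140 on continuous IPTG, LacQ140_A never given IPTG, and LacQ140_2M and LacQ140_8M withdrawn from it at 2 or 8 months). They were used for the spread between mice and for levels set side by side. The study made this comparison to find genes that respond to IPTG alone, which it then removed from its disease signature.

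Several transcript programs that react to temperature, protein load, activity and time of day are described here. Heat shock genes encode chaperones that hold or refold proteins in the cytosol, and they are switched on by HSF1, a factor that binds inverted repeats of the unit GAA. Chaperones of the endoplasmic reticulum (ER), such as *Hspa5* (BiP), are raised through ATF6 and XBP1, which act on the ER stress element. *Cirbp* and *Rbm3* encode RNA-binding proteins that rise on mild cooling and fall on warming. Immediate early genes such as *Fos*, *Arc* and the *Egr* family are transcribed within minutes of neuronal activity, and the clock genes cycle over the day. No body temperature, activity or time of death is given in the labels, and none was tested.

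Promoter sequences of the heat shock and ER genes are shown because many members of both lists rose in females and their control elements are short, defined motifs. The 250 bases before each start site in the RefSeq promoter table (build GRCm38.p6) were searched on both strands. The pair of inverted heat shock units GAANNTTC was found in 8 of the 23 heat shock promoters in the table (34.8%) and in 7.73% of all 27025 promoters. The ER stress element, CCAAT and CCACG with 9 bases between them, was found in 7 of 21 ER promoters (33.3%), against 0.13% of all promoters. The windows below reach 45 bases to each side of 1 match to the motif, which is in capitals, and read 5′ to 3′ on the strand of the gene, so that the ER element stands there in its reverse complement. They lie before the start sites of *Hspa1b* (chr17:34959290-34959387, minus strand), *Hspb1* (chr5:135887777-135887874, plus strand), *Creld2* (chr15:88819475-88819583, plus strand) and *Calr* (chr8:84847030-84847138, minus strand). The *Hspb1* window holds a further match in lower case, upstream of the capitals.
Hspa1b: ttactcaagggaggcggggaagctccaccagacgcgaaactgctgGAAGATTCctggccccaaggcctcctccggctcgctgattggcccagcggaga
Hspb1: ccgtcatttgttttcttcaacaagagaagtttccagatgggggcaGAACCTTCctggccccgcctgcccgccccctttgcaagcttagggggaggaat
Creld2: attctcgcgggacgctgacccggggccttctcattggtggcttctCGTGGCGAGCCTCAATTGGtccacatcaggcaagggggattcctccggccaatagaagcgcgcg
Calr: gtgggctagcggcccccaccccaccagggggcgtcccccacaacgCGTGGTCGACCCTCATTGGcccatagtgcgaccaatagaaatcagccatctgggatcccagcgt
A match is a run of letters and was not tested for binding. The lists name genes of the heat shock and ER stress responses, so their share of matches is not a result of these data. Matches were not compared with which members rose. The window of *Hspa1a* has the same letters as that of *Hspa1b*, and 247 of the 250 bases before the start sites of these neighbouring genes are identical. Reads of their near-identical transcripts may have been split between them, so the value of either is uncertain.

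Total expected counts lay between 36106783 and 46474909 in the WT libraries and between 35695916 and 50478438 in the WT + IPTG libraries. Levels are given as CPM, the count of a gene relative to the library total scaled by TMM factors. All 19 libraries matched their labelled sex, and 18 of 18 markers of the striatal spiny projection neuron exceeded 1 CPM in each. A technical measure set the groups apart within females. The slope of log2 CPM on log2 transcript length, which records how strongly a library favours long transcripts, was 0.419 ± 0.0311 in WT females (SD, n = 4) and 0.537 ± 0.0135 in WT + IPTG females (SD, n = 5). The groups did not overlap (exact permutation test, two-sided, p = 0.0159, the smallest this design allows; adjusted p = 0.1272 over 24 tests). In males the slope was 0.499 ± 0.024 and 0.478 ± 0.0688 (SD, n = 5 each; exact p = 0.722). Part of the results within and between the sexes are therefore also given with the slope as a covariate, an adjustment added there after the values were seen. Lists and genes without such a statement have values that are not adjusted for the slope.

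With both sexes pooled, 77 of 35386 genes differed between WT + IPTG and WT striatum (0.218% of the genes tested), 48 of them higher with IPTG (0.136%) and 29 lower (0.082%). The count was 13 when the fit held just the 19 libraries, 14 with a replicate block, 32 with the length slope as a covariate, 128 with DESeq2, 150 with a filter on low counts and 745 with voom and sample weights. A gene was called here and below when its Benjamini-Hochberg adjusted p-value in edgeR's quasi-likelihood test was under 0.05 and its fold change at least 20%. The 12 risen genes with the smallest p-values included 5 chaperone genes (*Hspa1a*, *Hspa1b*, *Hspb1*, *Serpinh1* and *Dnajb5*), the co-chaperone *Bag3*, and *Sdf2l1*, of the ER lumen. The calls lay close to the threshold. Their adjusted p-values ran from 0.00104 to 0.0498 and were at or above 0.03 for 67 of the 77 genes, and for none of the 77 were the 10 and the 9 mice separated without overlap. *Gm26723*, a noncoding RNA that led the fallen genes by p-value, rested on 3 WT females at 11.4 to 42.2 CPM, while the fourth WT female was at 0. The strand setting of the counting is not given in the sources used here, so its value is uncertain. *Krt2*, a keratin gene, rested on a single WT male at 6.36 CPM, with the other 18 libraries of these groups at or below 0.169 CPM.

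Leaving out each library in turn showed which mice carried the pooled calls. When any library of the other groups was left out, the count stayed between 55 and 101. When a WT or WT + IPTG library was left out, it ranged from 1 to 412, with a median of 15, and moved by more than 1.5 times in 16 of 19 fits. The count fell to between 1 and 13 when any WT + IPTG female was left out, and to between 3 and 15 when any WT female was. It rose to 412 and 358 without the WT + IPTG males M4 and M5, and to 125 without M2. The other changes were to 3 without the WT male M1, to 45 without the WT male M2, and to 34 and 47 without the WT + IPTG males M1 and M3. *Gm26723* was the only gene called in all 57 fits, and 9 genes were called in at least 50 of them.

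**Figure D1:**
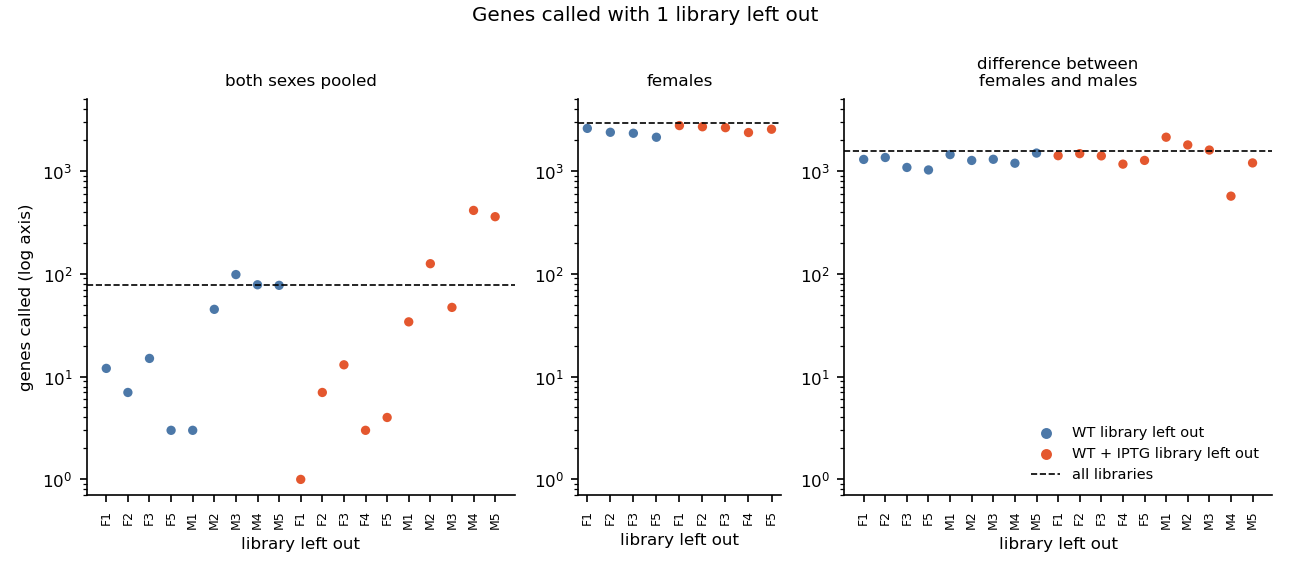
Number of genes called with the named library left out (log axis), for both sexes pooled, for females and for the difference between females and males, with the dashed line at the count from all libraries. The pooled count runs from 1 to 412, the count in females from 2119 to 2751, and the count for the difference from 567 to 2121.

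The IPTG effect differed between the sexes for 1549 genes (4.38% of those tested), in a test of the difference itself. The effect was more positive in females for 955 genes (2.7%) and more negative for 594 (1.68%). Within females, 2910 genes were called (8.22%), 1690 higher with IPTG (4.78%) and 1220 lower (3.45%). Shares here and below are over all genes tested, also those with few counts, which are hard to call. They are not matched to the level of the list members. Genes above a mean of 1 CPM were also put in 4 bins by transcript length, of 3644 or 3645 genes each. From the shortest bin to the longest, 82, 216, 400 and 936 rose in females, and 443, 290, 169 and 67 fell. Within males, 1 gene was called (0.00283%), the *Krt2* of a single mouse, with 1537 genes at an unadjusted p under 0.05 and 2 called by DESeq2. Of the 48 genes that rose in the pooled test, 45 were called in females, with a median log2 fold change of 0.82. In males 0 of them were called by edgeR, 11 had an unadjusted p under 0.05, and their median was 0.12. The females are part of the pooled test, so these counts describe where its calls came from. The difference between the sexes was called for 28 of the 48 risen genes and for 5 of the 29 fallen ones. In females the count was 2119 to 2751 with any of the 9 WT and WT + IPTG females left out. The count for the difference was 567 without the WT + IPTG male M4, 1019 without the WT female F5, 2121 without the WT + IPTG male M1 and 1078 to 1784 in the other 16 fits.

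With the length slope as a covariate, 1203 genes were called in females (3.4%), 632 higher with IPTG (1.79%) and 571 lower (1.61%). In the test between the sexes 153 genes were then called (0.432%), 82 positive (0.232%) and 71 negative (0.201%). Of the 48 genes that rose in the pooled test, 44 were called in females with this covariate and 11 in the difference between the sexes (28 without it). Of the 29 that fell, 18 were called in females (24 without it) and 0 in the difference (5 without it), with 11 at an unadjusted p under 0.05.

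Many heat shock genes were higher in WT + IPTG females. Of the 28 genes of the list, 17 rose and 0 fell in females, against 4.78% and 3.45% of all genes tested, with a list median log2 fold change of 0.31 against 0 over all genes. The 17 included *Hspa8*, *Hsph1*, *Dnaja1*, *Hsp90aa1*, *Stip1* and *Cryab*. In males 0 of the 28 were called, their median was 0.00, and 12 of the 28 were called in the test of the difference between the sexes, all positive (2.7% of all genes). When the length slope was a covariate, 18 of 28 were called in females, all higher (1.79% of all genes), and 13 in the difference, all positive (0.232%). With each of the 9 WT and WT + IPTG females left out in turn, 16 to 18 of the heat shock list were called in females. The same fits, used for all lists below, called 11 to 15 ER stress genes and 13 to 16 immediate early genes.

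*Hspa1b*, an inducible HSP70, was at 25.1, 9.04, 11.5, 13.5 and 10.1 CPM in the 5 WT + IPTG females and at 2.19, 2.28, 1.33 and 1.74 CPM in the 4 WT females. All 5 treated females lay above every other library of the 12-month striatum, whose highest value was 6.52 CPM. In males the level was 5.51, 1.37, 1.83, 1.73 and 1.15 CPM with IPTG and 4.06, 2.38, 3.44, 1.65 and 3.06 CPM without, so that the groups overlapped. The log2 fold change was 2.89 in females (SE 0.327, adjusted p = 3.1e-08) and −0.29 in males (SE 0.334, adjusted p = 0.987). The difference of 3.18 was itself called (SE 0.471, adjusted p = 0.000166). *Hspa1a* was at 12.3 to 25.7 CPM (median 15.9) in WT + IPTG females and 4.94 to 6.8 CPM (median 5.42) in WT females, a log2 change of 1.62 (SE 0.18, adjusted p = 3.06e-08). In males *Hspa1a* had a log2 fold change of −0.03 (SE 0.181), and neither gene was called.

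*Dnajb1*, the HSP40 partner of HSP70, was at 85.7, 74.2, 75.2, 76.1 and 81 CPM in WT + IPTG females, 50.8, 47, 54.5 and 55.3 CPM in WT females, and at most 71 CPM in any other library of this striatum. Its log2 change in females was 0.60 (SE 0.0947, adjusted p = 2.02e-05), and 0.00 in males (SE 0.0887). The small heat shock protein gene *Hspb1* was at 11.2 to 16.1 CPM in treated and 6.58 to 8.17 CPM in untreated females (log2 fold change 0.82, SE 0.144, adjusted p = 9.27e-05). In males its log2 change was 0.31 (SE 0.141, adjusted p = 0.987), and the difference between the sexes was not called (0.50, SE 0.201, adjusted p = 0.155). *Bag3*, which links HSP70 to autophagy, was alike in this respect: 0.53 in females (SE 0.0951), 0.21 in males (SE 0.0893), and a difference of 0.32 (SE 0.13, adjusted p = 0.172). *Serpinh1*, the collagen chaperone HSP47, was at 17.2 to 23.2 CPM in treated and 9.81 to 12 CPM in untreated females. Its difference between the sexes was called, at 0.66 (SE 0.202, adjusted p = 0.0448).

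**Figure D2:**
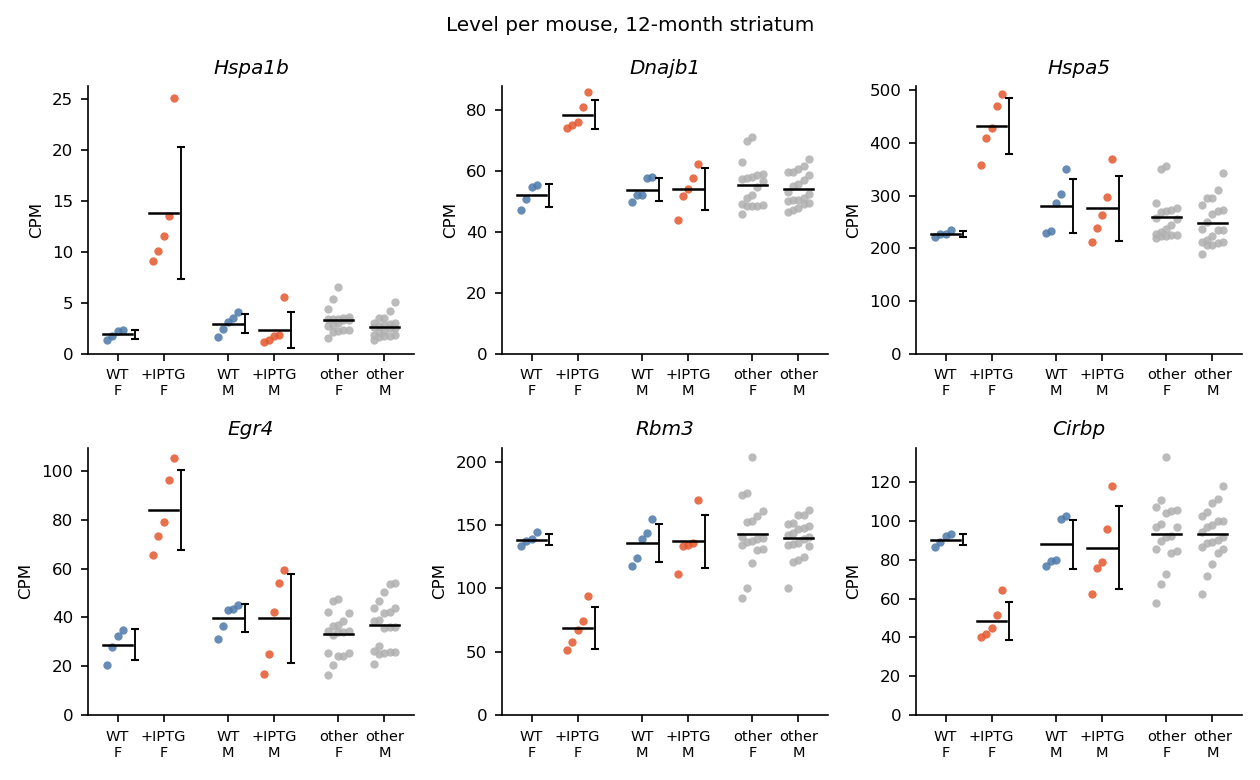
Level in CPM of 6 genes in each mouse of the 12-month striatum (1 point per mouse) for WT and WT + IPTG females (F) and males (M) and, in grey, the females and males of the other 4 groups; horizontal lines are means and error bars the SD, drawn for the WT groups only. In WT + IPTG females *Hspa1b*, *Dnajb1*, *Hspa5* and *Egr4* sit above all WT females and *Rbm3* and *Cirbp* below them, while the males of both groups overlap.

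Several chaperones and folding enzymes of the ER lumen also rose in WT + IPTG females. Of 25 genes of the ER stress list, 13 rose and 1 fell in females (median log2 fold change 0.28), against 4.78% and 3.45% of all genes, and 0 were called in males (median −0.01). For 6 the difference between the sexes was called, all positive, as it was for 2.7% of all genes. Differences between the sexes are given for this list without the length slope as a covariate. With it, the count over all genes was 153 and not 1549. *Hspa5*, the ER member of the HSP70 family, was at 429, 410, 358, 493 and 471 CPM in WT + IPTG females and 235, 227, 221 and 227 CPM in WT females. In males it was at 370, 297, 263, 238 and 211 CPM with IPTG and 230, 233, 351, 285 and 303 CPM without. The 5 treated females thus lay above all WT mice, whereas the treated males spanned the range of the untreated ones. The log2 fold change was 0.93 in females (SE 0.136, adjusted p = 7.39e-06), −0.02 in males (SE 0.126), and the difference 0.95 (SE 0.185, adjusted p = 0.00198).

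*Sdf2l1*, a component of the chaperone complex of the ER, was at 13.1 to 19.2 CPM (median 15.8) in WT + IPTG females, 7.55 to 7.74 CPM in WT females and at most 12.7 CPM in the other libraries. The log2 fold change was 1.03 (SE 0.155, adjusted p = 8.56e-06). *Pdia4*, a disulfide isomerase, rose by 0.84 (SE 0.131), the secreted factor *Manf* by 0.57 (SE 0.113) and the co-chaperone *Hyou1* by 0.40 (SE 0.0694), each called in females and in the difference between the sexes. *Creld2* (0.48, SE 0.131) and the calcium-binding lectin chaperone *Calr* (0.32, SE 0.0988), whose promoters are printed above, were called in females and not in the difference. The members that encode regulators of the stress response moved less uniformly. *Xbp1* (0.46, SE 0.105) and *Atf3* (1.29, SE 0.324) rose in females, the pseudokinase gene *Trib3* fell by 0.56 (SE 0.19; the ER list had a fallen member in 2 of the 9 fits without 1 female), and *Ddit3*, which encodes the pro-apoptotic factor CHOP, had a log2 change of 0.06 (SE 0.098, adjusted p = 0.867). With the length slope as a covariate 16 of the 25 were called in females, all higher (1.79% of all genes), *Ddit3* among them (0.33, SE 0.0733, adjusted p = 0.00396) and *Trib3* not (−0.27, SE 0.206).

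Both cold-inducible genes fell in WT + IPTG females. *Rbm3* was at 94, 67.1, 74, 57.3 and 51.2 CPM in WT + IPTG females and at 139, 144, 133 and 137 CPM in WT females. In males it was at 111 to 170 CPM (median 134) with IPTG and 117 to 155 CPM (median 139) without. Treated females were below every WT mouse, and treated males overlapped the untreated ones. The log2 fold change was −1.01 in females (SE 0.12, adjusted p = 9.53e-08), 0.01 in males (SE 0.112), and the difference −1.02 (SE 0.164, adjusted p = 0.000255). *Cirbp* was at 64.5, 44.7, 51.6, 41.8 and 40.2 CPM in treated and 93.2, 86.8, 92.1 and 89.5 CPM in untreated females (log2 fold change −0.90, SE 0.146, adjusted p = 2.85e-05). Its values in males were 62.5, 75.7, 79, 118 and 96 CPM with IPTG and 103, 101, 76.8, 80.2 and 79.5 CPM without, and the difference between the sexes was −0.87 (SE 0.2, adjusted p = 0.00672). Of the treated females, F1 had the highest *Rbm3* and *Cirbp* and also the highest *Hspa1b*. With the length slope as a covariate both genes were called in females, and the difference between the sexes was called for *Rbm3* (−0.85, SE 0.17, adjusted p = 0.0117) and not for *Cirbp* (−0.70, SE 0.214, adjusted p = 0.117).

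Most of the immediate early genes listed rose in WT + IPTG females. Of 22 genes, 15 rose and 0 fell (4.78% and 3.45% of all genes), with a median log2 fold change of 0.89. The difference was called for 11, all positive (2.7% of all genes). In males 0 were called and the median was −0.06. The transcription factor gene *Egr4* was at 73.2, 79.3, 65.5, 96.2 and 105 CPM in WT + IPTG females and at 20.6, 27.8, 32.3 and 34.8 CPM in WT females (log2 fold change 1.54, SE 0.242, adjusted p = 1.94e-05). *Egr2* was at 53.6 to 75.8 CPM (median 59) against 8.55, 12, 15.7 and 18 CPM (2.22, SE 0.369), and *Nr4a3*, an orphan nuclear receptor gene, at 36.4 to 72.2 CPM (median 39.5) against 4.87, 6.56, 9.3 and 14.9 CPM (2.41, SE 0.445). Treated and untreated females did not overlap for any of these. *Fos*, a subunit of AP-1, was at 43.3 to 55.2 CPM with IPTG and 11.4 to 19.9 CPM without (1.59, SE 0.344, adjusted p = 0.00114), and *Arc*, which acts at synapses, at 550 to 594 and 190 to 290 CPM (1.31, SE 0.303, adjusted p = 0.00243). The activity-dependent *Npas4* was not called in females (0.71, SE 0.256, adjusted p = 0.0645). Among the treated males, M4 and M5 stood below the others for these genes. *Egr2* was at 4.11 and 6.4 CPM in M4 and M5 and at 27.2 to 37.6 CPM in the other 3, and *Arc* at 89 and 119 CPM against 283 to 415 CPM, while WT males had 254 to 306 CPM of *Arc*. M4 and M5 are also the libraries whose removal raised the pooled count most. With the length slope as a covariate, 11 of 22 genes were called in females (3.4% of all genes) and 1, *Egr4*, in the difference between the sexes (0.432%).

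**Figure D3:**
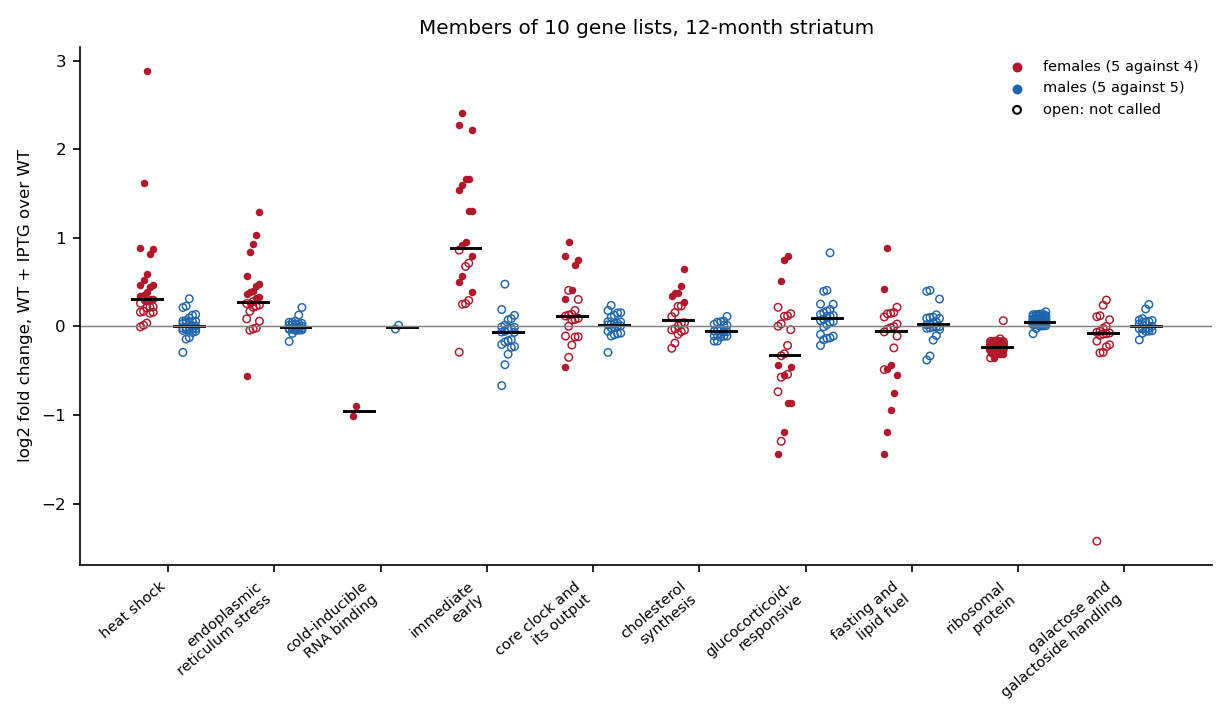
Log2 fold change of WT + IPTG over WT for each member of 10 gene lists in females (red, 5 against 4 mice) and males (blue, 5 against 5), filled where called; horizontal lines are list medians. Filled points occur in females only, 17 of 28 for heat shock and 15 of 22 for immediate early genes.

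Clock genes changed in part, again in females. Of 22 genes of the clock and its output, 6 rose and 1 fell in females (4.78% and 3.45% of all genes; median log2 fold change 0.12), 0 were called in males, and the difference between the sexes was called for 4, positive for 3 (2.7% of all genes) and negative for 1 (1.68%). The fallen count was 0 without the WT + IPTG females F3, F4 or F5 or the WT females F3 or F5, and 2 without the WT female F2. *Arntl*, the BMAL1 subunit of the activating complex, was at 47.1, 46.4, 43.1, 46.8 and 42.1 CPM in treated and 26.8, 25.2, 27.6 and 24.2 CPM in untreated females. Untreated males had 31.1 to 44 CPM and treated males 29.4 to 37.8 CPM, so the WT females lay below all males and the treated females overlapped only the highest WT male. The log2 fold change of *Arntl* was 0.80 in females (SE 0.102, adjusted p = 3.41e-07) and the difference between the sexes 0.88 (SE 0.138, adjusted p = 0.000185). Its partner *Clock* (0.31, SE 0.0959) and the repressor genes *Per1* (0.75, SE 0.159) and *Per2* (0.95, SE 0.224) were called in females and not in the difference. *Nfil3*, a repressor of the output genes, was at 7.13 to 10.3 CPM in treated and 4.54 to 5.32 CPM in untreated females (0.70, SE 0.134), and its difference between the sexes was called (0.99, SE 0.184, adjusted p = 0.00146). The repressor gene *Nr1d1* was at 107 to 130 CPM in treated and 92.3 to 132 CPM in untreated females (0.00, SE 0.0841), and the output gene *Dbp* was not called (−0.35, SE 0.122, adjusted p = 0.0574). With the length slope as a covariate, 3 of the 22 were called in females (*Arntl*, *Nfil3* and *Bhlhe40*; 3.4% of all genes) and 2 in the difference (*Arntl* and *Nfil3*; 0.432%). Some of the lists share genes: *Per1* is also on the glucocorticoid list, and *Dusp1* is on that list and on the immediate early one.

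Genes of glucocorticoid response and of fasting moved in both directions. In females 3 of 24 glucocorticoid-responsive genes rose and 7 fell (median log2 fold change −0.32), and 2 of 22 genes of fasting and lipid use rose and 7 fell (median −0.05), with 0 called in males for either list. Over all genes 4.78% rose and 3.45% fell. Without the WT female F5, 3 of the fasting genes were called, all lower, and 4 fell without the WT + IPTG female F1. The risen fasting genes numbered 1 without the WT + IPTG females F1 or F3 or the WT females F2 or F3. *Angptl4*, which inhibits lipoprotein lipase and stands on both lists, was at 2.97, 3.38, 2.79, 2.66 and 3.81 CPM in treated and 6.56, 8.41, 9.61 and 9.2 CPM in untreated females. Its log2 change was −1.44 in females (SE 0.252, adjusted p = 7.81e-05) and 0.40 in males (SE 0.215, adjusted p = 0.987), and the difference was −1.84 (SE 0.331, adjusted p = 0.00116). *Fkbp5*, a sensitive target of the glucocorticoid receptor, was not called in females (−0.31, SE 0.132, adjusted p = 0.146), and *Nr3c1*, the receptor itself, rose by 0.51 (SE 0.0902). In the sterol pathway 6 of 20 genes rose in females and 0 in males.

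Lists that bear on the handling of a sugar analog and on chemical or osmotic load differed in their calls. Of 19 genes that handle galactose and galactosides, 0 were called with the sexes pooled, in females or in males (edgeR), and the median log2 fold change in females was −0.08. In females 1 was called without the WT + IPTG female F1 or the WT females F1 or F5. After adjustment for the length slope, 1 of them rose in females (*Lgals1*) and 1 fell (*B4galt1*). Of 19 genes of osmotic and xenobiotic response, 3 rose and 3 fell in females, against 4.78% and 3.45% of all genes tested. The fallen count was 1 without the WT + IPTG females F1 or F3 or the WT female F3, and 2 to 4 without each of the other females. Among the risen genes *Slc5a3*, the myo-inositol transporter, had 17.4 to 23.4 CPM in treated and 10.6 to 14.6 CPM in untreated females (0.65, SE 0.143, adjusted p = 0.00138). Of 24 genes of the list of NRF2, its partners and antioxidant genes, 4 rose and 0 fell in females, *Txnrd1* among the risen (0.36, SE 0.0693). Without the WT female F5, 2 rose, and 1 fell without the WT + IPTG females F3 or F4. In the list of histone deacetylases and methyl-CpG readers, *Hdac5* was called with the sexes pooled (0.29, SE 0.0568, adjusted p = 0.0215), and its difference between the sexes was 0.14 (SE 0.106, adjusted p = 0.588). With 1 female left out, 2 to 4 members of this list were called in females, against 8.22% of all genes with all libraries. The list median log2 fold change was −0.005 to 0.039 in those fits. Of 17 interferon-response genes, 2 rose in females (median log2 fold change 0.42). Without the WT + IPTG female F3 the median was −0.13 and 0 were called. The risen count was also 0 without the WT female F1, 1 without the WT females F3 or F5, and 7 and 6 without the WT + IPTG females F1 and F2. Of 9 nuclear long noncoding RNAs 0 were called, 2 without the WT + IPTG female F5 and 1 without the WT female F1. Of 13 mitochondrially encoded genes 2 fell in females. That count was 0 without the WT + IPTG female F3 or the WT female F2, and 3 without the WT females F1 or F3.

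Ribosomal protein genes moved with the length slope. Of 50 such genes, 13 fell in females (3.45% of all genes; median log2 fold change −0.24) and 0 in males (median 0.05), with 14 called in females without the WT + IPTG female F1 and 9 without F2 or F3. The count was 5 and 3 without the WT + IPTG females F4 and F5, 6 without the WT females F1 or F3, 4 without F5 and 23 without F2. With the slope as a covariate the median in females was 0.01, with 1 gene higher and 0 lower. With the genes above a mean of 1 CPM in 4 equal bins by transcript length, the median log2 fold change in females was −0.12 in the bin of the shortest and 0.18 in that of the longest transcripts. With the covariate these medians were 0.03 and 0.03. The mean log2 level of the heat shock list in the 5 WT + IPTG females, relative to all 57 libraries, was 0.30 to 0.45, against −0.10 to −0.05 in WT females and at most 0.28 in the other groups. For the ER list the treated females lay at 0.19 to 0.39, and the lowest of them (F3) did not stand apart from the treated male M1, also at 0.19 and with a slope of 0.513. The share of mitochondrially encoded reads was 7.6% ± 0.53 in treated and 9.21% ± 1.49 in untreated females (SD, n = 5 and 4; exact permutation test, two-sided, p = 0.0159, adjusted p = 0.1272). Their part in the results was not tested beyond the covariate.

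**Figure D4:**
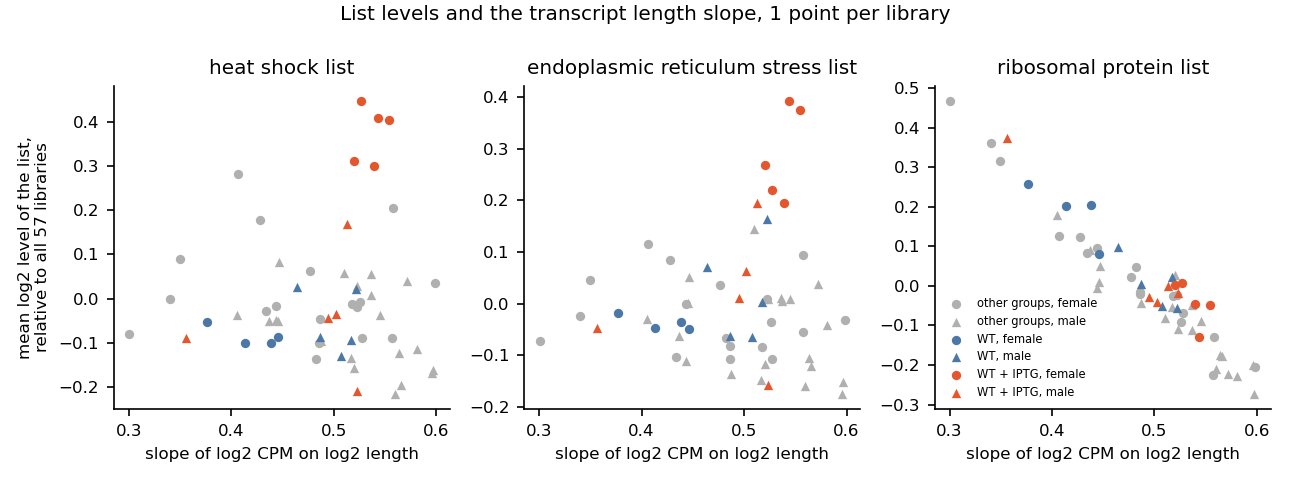
Mean log2 level of the heat shock, ER stress and ribosomal protein lists, relative to all 57 libraries of the 12-month striatum, against the slope of log2 CPM on log2 transcript length, with 1 point per library (circles females, triangles males; colours mark WT, WT + IPTG and the other groups). The ribosomal protein level falls as the slope rises, while the WT + IPTG females, at slopes of 0.52 to 0.55, reach 0.30 to 0.45 for heat shock, above libraries of like slope.

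Of the 29 genes that fell in the pooled test, 24 were called in females and 1, *Krt2*, in males. Their median log2 fold change was −0.63 in females and −0.38 in males, and 19 had an unadjusted p under 0.05 in males. Both sexes are part of the pooled test that chose these genes. *Togaram2*, a microtubule-binding protein gene, was at 3.72, 3.18, 3.51, 3.17 and 3.67 CPM in treated and 5.07, 5.28, 5.74 and 5.05 CPM in untreated females. In males it was at 3.89, 3.05, 3.29, 3.88 and 5.22 CPM with IPTG and 5.52, 6.03, 4.24, 4.8 and 4.27 CPM without. Its log2 change was −0.61 in females (SE 0.154) and −0.37 in males (SE 0.144, adjusted p = 0.987). Ependymal cells line the ventricle beside the striatum. Their 5 markers summed to 30.9 ± 3.67 CPM with IPTG and 37.1 ± 3.81 CPM without (SD, n = 10 and 9), with ranges of 25.8 to 35.5 and 31.5 to 43.7 CPM (exact permutation test, two-sided, p = 0.00217, adjusted p = 0.05208). Of the 5, 1 fell in the pooled test (*Dynlrb2*; 0.082% of all genes) and 2 in females (3.45%), whereas *Foxj1*, the master regulator of motile cilia, had a pooled log2 change of −0.12 (SE 0.0889, adjusted p = 0.668). Of the cell type marker sums, those of ependyma and blood alone were tested, a choice that the adjusted p-value does not cover. Fewer ependymal cells in a sample and less of their marker RNAs per cell cannot be told apart in bulk tissue.

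Of 18 spiny projection neuron markers, 1 rose and 1 fell in females, near the 4.78% and 3.45% of all genes, and 0 were called in males or with the sexes pooled. The 8 astrocyte markers summed to 4511 to 4723 CPM in treated and 3970 to 4357 CPM in untreated females, without overlap, and 1 of them (*Aqp4*) was called in females. In males the sums were 4066 to 4919 and 4135 to 4540 CPM. The 6 markers of mural cells, which surround vessels, also did not overlap in females, with 249 to 271 CPM against 228 to 247 CPM, and had 231 to 287 and 217 to 244 CPM in males. Their part in the results in females was not tested. Of the mural cell markers, *Acta2* was called in the pooled test (0.32, SE 0.0773, adjusted p = 0.0497), with log2 fold changes of 0.37 in females (SE 0.114) and 0.26 in males (SE 0.107). *Nos3*, the nitric oxide synthase of endothelium, had 0.52 (SE 0.126) and 0.32 (SE 0.117). The 5 blood markers, all but 1 of them globin genes, summed to 276 to 403 CPM in treated and 146 to 371 CPM in untreated females, and 0 of the 5 were called. In males the range was 279 to 1960 CPM with IPTG and 184 to 383 CPM without, the highest value being that of mouse M1.

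*Htt*, which is wild type in all these mice, was at 147, 151, 155, 163 and 150 CPM in WT + IPTG females and 129, 118, 126 and 119 CPM in WT females. In males it was at 125 to 152 CPM with IPTG and 137 to 150 CPM without. With the sexes pooled it was not called (0.13, SE 0.069, adjusted p = 0.504). In females the log2 fold change was 0.32 (SE 0.0855, adjusted p = 0.00893) and in males −0.04 (SE 0.0802), and the difference was not called (0.36, SE 0.117, adjusted p = 0.0635). *Htt* encodes a long transcript, and with the length slope as a covariate its log2 change in females was 0.07 (SE 0.0584, adjusted p = 0.69).

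Among all genes, the 3 with the smallest p-values for a more positive effect in females were *Hspa1b*, *Hspa1a* and *Sik2*, a salt-inducible kinase gene. *Sik2* was at 47.1, 47.5, 48, 58.2 and 50.2 CPM in treated and 20.4, 21.5, 18.2 and 19.5 CPM in untreated females, while treated and untreated males had 23 to 40.9 and 33.7 to 41.4 CPM. Its log2 change in females was 1.34 (SE 0.165, adjusted p = 2.03e-07) and, with the length slope as a covariate, 0.91 (SE 0.136, adjusted p = 3.91e-05). On the negative side stood *Rbm3*, a gene listed by its identifier only (ENSMUSG00000092486) and the noncoding *2810029C07Rik*. The last was at 4.05, 4.52, 3.54, 3.34 and 3.16 CPM in treated and 13, 11.1, 12.4 and 13.4 CPM in untreated females. Untreated males had 6.61 to 10.9 CPM and treated males 5.67 to 13.6 CPM, above every treated female.

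Cortex was examined for the same genes in all 19 mice and in 1 further WT female (F4) that has no striatal library here. With the sexes pooled, 0 of 34493 genes were called by edgeR (0% of those tested), with 2001 at an unadjusted p under 0.05 and 15 called by DESeq2. In cortex of females 30 genes were called (0.087%), 21 higher (0.0609%) and 9 lower (0.0261%). In cortex of males 0 were called by edgeR (0%), with 1388 at an unadjusted p under 0.05. The difference between the sexes was called for 2 genes there (0.0058%), *Gadd45a* and *mt-Nd6*. Of the ER list, 6 of 25 rose in the cortex of females, and of the heat shock list 1 of 28, *Dnajb1*.

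*Sdf2l1* was at 31.5, 31.1, 31.4, 39.4 and 49.4 CPM in the cortex of treated females and 18.3, 16.3, 14.1, 23.1 and 14.4 CPM in that of untreated ones (log2 fold change 1.09, SE 0.183, adjusted p = 0.00127). *Hspa5* was at 301 to 437 CPM against 196 to 248 CPM (0.70, SE 0.128, adjusted p = 0.00241), and *Dnajb1* at 97.9 to 127 CPM against 69.7 to 79.9 CPM (0.56, SE 0.0932, adjusted p = 0.00127). *Cirbp* was lower, at 57.7 to 80.5 CPM against 93 to 140 CPM (−0.81, SE 0.144, adjusted p = 0.00209) and *Angptl4* was at 3.15 to 5.34 CPM against 8.34 to 12.5 CPM (−1.32, SE 0.24, adjusted p = 0.00236). For all of these the cortical groups of females did not overlap. *Hspa1b* stood apart. In cortex it was at 8.12, 5.03, 4.6, 4.28 and 4.52 CPM with IPTG and 3.03, 3.35, 2.73, 4.63 and 4.48 CPM without, and its log2 fold change of 0.55 was not called (SE 0.228, adjusted p = 0.549). *Rbm3* was not called either (−0.46, SE 0.177, adjusted p = 0.462).

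The difference in IPTG effect between striatum and cortex, tested within mice, was called for 0 of 34331 genes over both sexes (0%), with 1774 at an unadjusted p under 0.05 and 24 called by DESeq2. In females it was called for 22 genes (0.0641%), 18 with the more positive effect in striatum and 4 with the more positive effect in cortex, while DESeq2 called 200. *Hspa1b* (2.22, SE 0.291, adjusted p = 0.000804) and *Hspa1a* (1.62, SE 0.267, adjusted p = 0.00721) were among them, as was *Banp* (1.06, SE 0.167, adjusted p = 0.00525), which encodes a nuclear-matrix and methylation-sensitive DNA-binding protein. By edgeR the difference was not called for *Hspa5* (0.19, SE 0.138), *Sdf2l1* (−0.16, SE 0.149), *Dnajb1* (0.05, SE 0.134) or *Cirbp* (−0.02, SE 0.137). The length slope did not separate the groups in cortex, with −0.126 ± 0.103 in treated and −0.117 ± 0.139 in untreated females (SD, n = 5 each; exact permutation test, two-sided, p = 0.905).

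**Figure D5:**
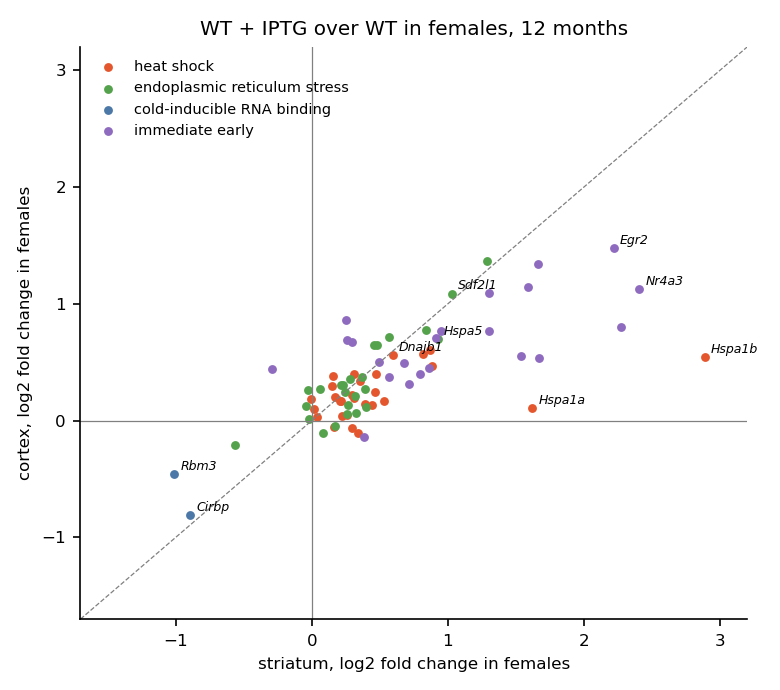
Log2 fold change of WT + IPTG over WT in females for the members of 4 gene lists, in striatum (horizontal axis) and in cortex (vertical axis; 1 further WT female), with the dashed line at equal change. *Hspa1b* and *Hspa1a* lie far to the right of the line (2.89 and 1.62 in striatum, 0.55 and 0.11 in cortex), whereas *Sdf2l1*, *Hspa5*, *Dnajb1* and *Cirbp* lie near it.

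At 6 months the striatum of other WT mice, counted in another deposited table, is set beside these values without a test between ages. There 209 genes were called with the sexes pooled (0.584%). In females 0 of 35808 were called by edgeR (0%), with 2615 at an unadjusted p under 0.05, and in males 458 (1.28%), 253 higher (0.707%) and 205 lower (0.572%). *Hspa1b* had a log2 change of −2.19 in 6-month males (SE 0.447, adjusted p = 0.00237) and 0.04 in 6-month females (SE 0.477), against −0.29 and 2.89 at 12 months. *Dnajb1* fell in 6-month males by 0.46 on the log2 scale (SE 0.106), and *Cirbp* and *Rbm3* had 0.39 and 0.39 there (SE 0.129 and 0.129, neither called). *Angptl4* rose by 2.41 in 6-month males (SE 0.2, adjusted p = 1.32e-12), where it had fallen in 12-month females. Of the glucocorticoid-responsive list 16 of 24 rose in 6-month males, and of the cholesterol synthesis list 11 of 20 fell.

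LacQ140 mice on continuous IPTG at 12 months offer a second set of treated females. In these 4 mice *Hspa1b* was at 1.49 to 5.33 CPM (median 3.51), *Dnajb1* at 48.3 to 69.9 CPM (median 59.7), *Hspa5* at 227 to 357 CPM (median 265) and *Rbm3* at 92.3 to 152 CPM (median 138). Their *Cirbp* was at 57.9 to 104 CPM (median 87.6). For all 5 genes these ranges overlapped those of WT females without IPTG. WT + IPTG females lay above them for *Hspa1b*, *Dnajb1* and *Hspa5* and overlapped them for *Rbm3* and *Cirbp*. Genotype differs between the sets of treated females, and no test was made between them.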

How the data were processed

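Total RNA was extracted from striatum and cortex, and its libraries, labelled mRNA, were sequenced by the authors, who deposited expected counts per gene (the estimated number of reads of each gene, not normalized) in 1 table per age. The genome build in the submitters' processing notes is GRCm38; the aligner and counting program are not given in the sources used here. Of nonzero values at 12 months, 26.12% were not whole (tolerance 0.001), and values were rounded. Gene names came from GENCODE vM21, which matched 54495 of 54532 genes, and promoters from RefSeq.

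All 57 libraries of the 12-month striatum carry the same batch label and were fitted together with edgeR 4.0.16 (R 4.3.3; TMM, glmQLFit with legacy set to FALSE, quasi-likelihood F-test) on the 35386 genes with at least 1 count because the study disabled independent filtering. The SE of a log2 fold change was derived from its F statistic. Group was the only term of the pooled comparison; contrasts within and between the sexes used group-by-sex means, and those between tissues a term for mouse. Medians, exact permutation tests and motifs were computed in Python 3.11.15 (scipy 1.17.1). The fits were checked on simulated data. The alternatives were DESeq2 1.42.0 and its size factors, filterByExpr, fewer libraries, sex or the length slope as covariates, a replicate block, voom with sample weights (limma 3.58.1), no fold bound, and leaving out each library (beyond the pooled comparison, those of the WT groups compared only). Genes named are *Htt*, the 12 risen and 12 fallen genes with the smallest p-values, those called in most leave-one-out fits, called list members or up to 4 with the smallest p-values, and the leading genes by sex and tissue (94 in all); other list members are named from their lists after their values were seen. The lists, genes and tests were chosen with earlier results of these data known, and the sex-specific comparisons, the 6-month and cortical tests by sex and the motifs were added after seeing the data.

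Replicate numbers name different mice in the groups: deviations of the 9 same-numbered pairs correlated by −0.17 to 0.132. In the duplicate check, chi-square divided by its degrees of freedom was at least 6.15 over 81 pairs of libraries (median 22.73), and no library was counted as a duplicate. The labels number the mice as separate animals. Some named genes are not reported here.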

Additional observations from a re-analysis of the deposited data

Results flagged for a closer look

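The IPTG effect differed between females and males for 1549 genes in the 12-month striatum, by the test of the difference itself. The leading genes were *Hspa1b* (log2 difference 3.18), *Hspa1a* (1.65), *Sik2* (1.45), *Rbm3* (−1.02), the gene ENSMUSG00000092486 (−1.27) and *2810029C07Rik* (−1.79). The difference between the sexes was called for 2 genes in the 12-month cortex and for 33 in the 6-month striatum. In females the effect differed between striatum and cortex for 22 genes.

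Single libraries were compared with the rest of the 9 WT or the 10 WT + IPTG mice, over 196 sets of values. In 14 sets the highest or lowest mouse stood far from the others by Dixon's criterion, which chance exceeds in about 1 of 20. The WT + IPTG male M4 had the lowest length slope of its group (0.356, the next being 0.495) and the highest *Rpl30* (251 CPM, next 208), *Rps4x* (352 CPM, next 302) and *Rps25* (277 CPM, next 224), which encode ribosomal proteins. The WT + IPTG female F3 had the highest *Ifit1* (20.4 CPM, next 6.49) and *Rsad2* (9.45 CPM, next 3.59), both interferon-induced. The WT male M3 had the highest *Chordc1* (40.1 CPM, next 30.6) and *Xbp1* (120 CPM, next 95.2) of the WT mice.

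The blood markers summed to 1960 CPM in the WT + IPTG male M1, the next mouse being at 505 CPM. *Krt2* was at 6.36 CPM in the WT male M1, against at most 0.0716 CPM in the other WT mice, and at 0.169 CPM in the WT + IPTG male M5, against at most 0.0784 CPM. *Togaram2* was at 5.22 CPM in the same treated male (next 3.89). *Sult1a1* was highest in the WT male M5 (40.4 CPM, next 29.2), and *Sh3bp5l* lowest in the WT female F2 (28.4 CPM, next 34.4).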

How the results depend on the processing

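The pooled count of 77 genes was 91 with no fold bound, 66 with DESeq2's size factors and 59 with sex as a covariate. It was 128 with DESeq2, 150 with filterByExpr, 13 when the fit held just the 19 libraries compared, 32 with the length slope as a covariate, 745 with voom and sample quality weights, 2910 in females only and 1 in males only. With a replicate block it was 14; 0 of 9 WT libraries correlated best with their own number. Leaving out each of the 57 libraries gave 1 to 412 for the pooled comparison. Leaving out each WT or WT + IPTG library of the groups compared gave 2119 to 2751 in females, 0 to 1 in males, 567 to 2121 for the difference between the sexes, 0 to 2 for striatum against cortex and 0 to 5 for the difference between the sexes in cortex.

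In females the count of 2910 was 1203 with the length slope as a covariate and 2890 to 3267 under the other alternatives. In males it was 2 with DESeq2, 0 with filterByExpr and 0 with just the 19 libraries. The difference between the sexes was called for 153 genes with the length slope and for 1543 to 2212 under the other alternatives. DESeq2 called 15 genes in cortex, 24 for striatum against cortex and 200 for the same in females, 27 for the difference between the sexes in cortex and 86 at 6 months; the 6-month pooled count of 209 was 126 when the fit held just the groups compared. The cause of these changes was not tested. The within-sex results, the tests by sex in cortex and at 6 months, the tissue test in females and the slope in the test between the sexes were added after seeing the data.

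Among the named genes that were called, reversed signs arose in males only for *Hspa1b* (−0.29), *Hspa1a* (−0.028), *Egr4* (−0.0063) and *Hspa5* (−0.023). *Krt2*, at −3.96, was at 0.62 with DESeq2 and 0.59 in females only, and at −4.35 to 0.51 with 1 library left out, the last without the WT male M1. For the 29 named genes that were called, 1367 of 1653 leave-one-out values and 207 of 289 others kept their direction and call. For the 65 that were not called, the rule was a value within 1 SE of the main one and no call in its direction. It held for 3650 of 3705 leave-one-out values and 490 of 650 others, and did not compare signs. Counts near 0, as in *Krt2* and *Gm26723*, limit those genes.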
